A study of Mus musculus with 17 samples.

Results

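The NRF2 pathway genes described here are 10 genes chosen by symbol from a deposited table of 42794 gene lines: the transcription factor gene Nfe2l2, the inhibitor gene Keap1 and the target genes Nqo1, Hmox1, Srxn1, Txnrd1, Gclc, Gclm, Gsr and G6pdx. They were taken from the table by symbol and not by a measured value, but the list was drawn up with earlier results of these data known. All 10 were found, and all 10 passed the filter on low values that left 13279 genes for testing. The table holds RNA-seq of whole mouse kidney in 17 libraries, given as FPKM (fragment counts scaled to gene length and library size). The group DKD_shRNA (7 libraries) carries the genotype label Gcgr shRNA, a hairpin against the glucagon receptor gene that the design text places in PTEC, the proximal tubule epithelial cells. The group DKD_Vehicle (6 libraries) carries the genotype label Ctr shRNA, although its titles say Vehicle, so both DKD groups carried a hairpin by their genotype labels. The group NC (4 libraries) is labelled WT. DKD is diabetic kidney disease, as the series title has it. The sources used here do not give the strain, age and sex of the mice, the means of inducing the disease or the route of the hairpin.

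NRF2, the protein of Nfe2l2, is a transcription factor that KEAP1 holds in the cytoplasm and hands to a ubiquitin ligase for degradation. Oxidants and electrophiles modify KEAP1, NRF2 then escapes degradation, enters the nucleus with a small MAF partner and binds antioxidant response elements in its target genes. Because this control acts mainly on the NRF2 protein, mRNA levels of Nfe2l2 and of its targets are separate readouts. In the kidney the pathway is known for protecting tubule cells, which work at high oxygen use, against oxidative injury.

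The 17 libraries were close in depth, at 13997657 to 17107876 reads recovered from the FPKM values, and 12183 to 12919 genes per library reached 1 FPKM. Gcgr, the hairpin's target, averaged 13.02 ± 1.70 FPKM in the libraries labelled DKD_shRNA, 9.74 ± 2.14 in those labelled DKD_Vehicle and 20.8 ± 2.42 in NC (SD, n = 7, 6 and 4). It was thus not lowest in the libraries labelled as its knockdown. It stood 0.40 above DKD_Vehicle on the log2 scale, with p = 0.00641 in an exact two-sided permutation test of this gene alone. Over all genes it was not called (limma adjusted p = 0.413, and 0.238 to 0.720 over the 30 alternatives). These are whole-kidney values, while the design text places the hairpin in PTEC. The Gcgr level in those cells alone was not measured. All 8 markers used to check the tissue, among them Slc34a1 for proximal tubule and Umod for thick ascending limb, were detected. The summed level of 8 fat markers was 713.9 FPKM in DKD_Vehicle 20 and at most 68.5 in any other library, and that of 6 urothelium markers was 176 against at most 11.7. DKD_Vehicle 20 is therefore also left out as an alternative. DKD_shRNA 31 is left out together with it because an earlier analysis of these data set it apart. Its own fat and urothelium sums were not high, at 25 and 2.04 FPKM. No label says that the libraries came from separate animals. The p-values thus measure spread among libraries, which may in part be technical. In whole tissue, fewer cells of a type and less RNA per cell cannot be told apart.

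By mean FPKM over all 17 libraries, a level per gene length, Gclc was highest at 104, followed by Gclm at 74.5, Gsr at 71.1, Hmox1 at 56.6, Nqo1 at 48.6, Srxn1 at 44.2 and Txnrd1 at 36.9. Nfe2l2 itself stood at 28.2, G6pdx at 12.2 and Keap1 at 9.66. Neighbours in this order overlapped in their ranges over libraries with 1 exception: the lowest Nfe2l2 value, 18.2 FPKM, lay above the highest G6pdx value of 13.99. The place of Hmox1 differed between groups. It averaged 54.3 FPKM in DKD_shRNA and 77.9 in DKD_Vehicle, the second highest member there, and 28.5 in NC, below Nqo1 at 47.2, Txnrd1 at 31.2 and Srxn1 at 30.01. Without DKD_Vehicle 4, at 219.8 FPKM, the DKD_Vehicle mean of Hmox1 was 49.5. The members also differed in their spread within groups. The SD left after removing group means, on the log2(FPKM + 1) scale, was 0.73 for Hmox1, 0.54 for Gclc, 0.46 for Nqo1 and 0.43 for Srxn1, against a median of 0.18 over all tested genes. Hmox1 varied more than 98.0% of tested genes, Gclc more than 94.9%, Nqo1 more than 92.6% and Srxn1 more than 91.45%. Keap1 and G6pdx lay at the other end at 0.11 each, with only 12.8% and 14.0% of tested genes varying less. The lowest count behind any value was 472 recovered reads, for G6pdx in NC.

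**Figure D1:**
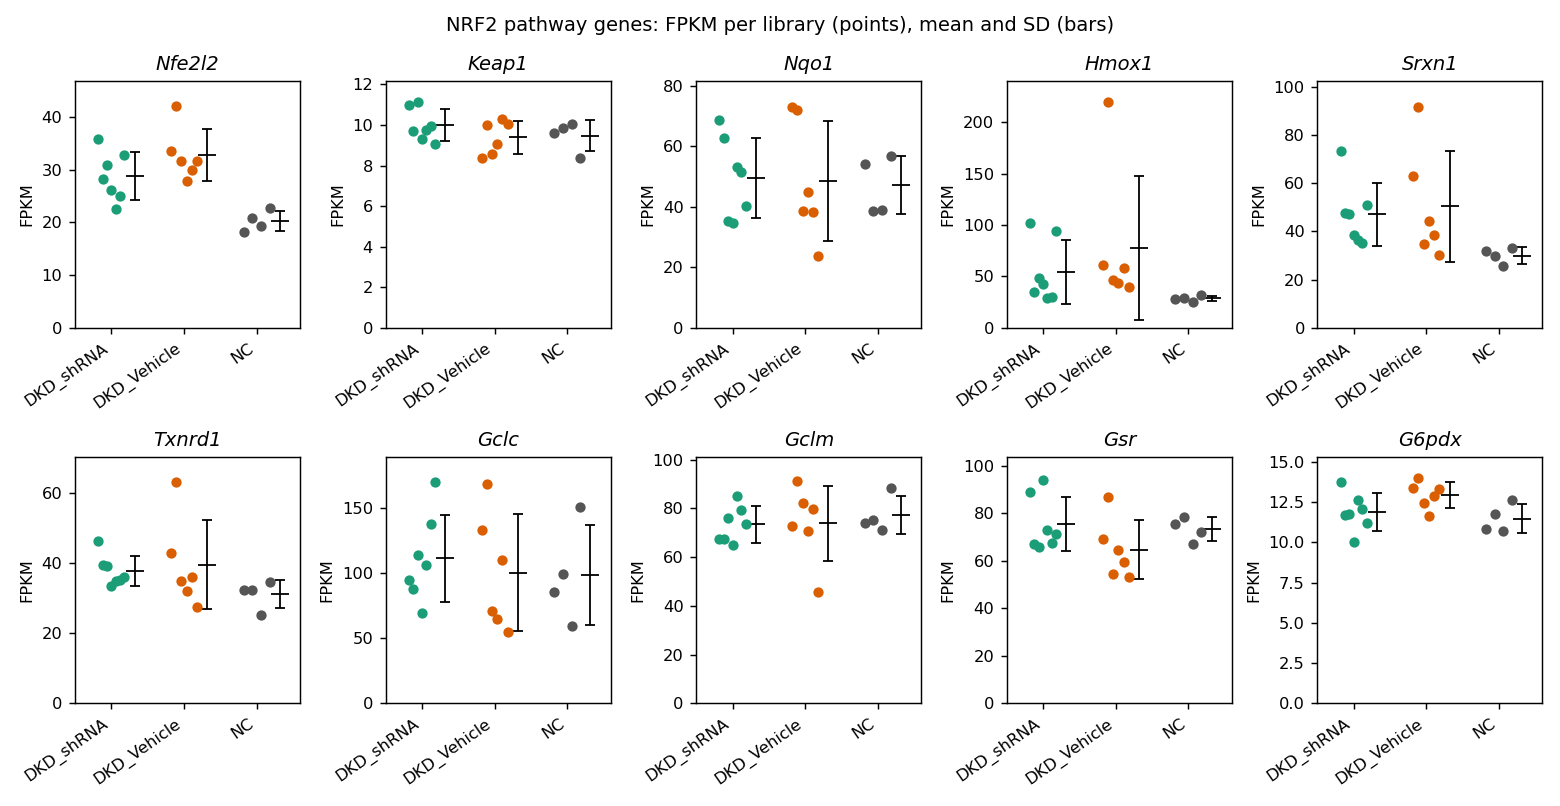
FPKM of the 10 NRF2 pathway genes in each library (points; linear axes from 0), by group, with the group mean and SD beside them (n = 7, 6 and 4). All 6 DKD_Vehicle points of Nfe2l2 and Hmox1 lie above every NC point, 1 DKD_Vehicle point of Hmox1 reaches 219.8 FPKM, and the groups of Nqo1, Gclc and Gclm overlap.

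Among the members Nfe2l2 alone differed from wild type past the test, 1.39-fold higher in DKD_shRNA and 1.59-fold higher in DKD_Vehicle than in NC. Hmox1 stood 1.67-fold and 2.17-fold above NC in the same groups and Srxn1 1.52-fold and 1.55-fold, without passing. Keap1, Nqo1 and the glutathione genes Gclc, Gclm and Gsr lay between 0.871 and 1.15 times the NC level in both DKD groups. Differences were tested on log2(FPKM + 1) with limma and Benjamini-Hochberg adjustment over all 13279 genes, and a gene was called at an adjusted p under 0.05. The 3 comparisons share libraries and are not independent of each other. In DKD_Vehicle against NC, which sets kidneys with the disease and the control treatment against wild type, 1 of 10 members was called (Nfe2l2, higher), where 7.49% of all tested genes were called and 3.58% were called higher. The members' median log2 fold change was 0.07, against 0.01 over all tested genes, with 5 of 10 above 0 (51.5% of tested genes), and 4 of 10 had an unadjusted p under 0.05 (23.4%). DKD_shRNA against DKD_Vehicle compares libraries by their hairpin label, although whole-kidney Gcgr was not lower in DKD_shRNA. There none of the 10 was called, and neither was any tested gene (0%). Of the members 5 of 10 lay above 0, as did 48.5% of tested genes. At an unadjusted p under 0.05, 0 of 10 members and 7.32% of tested genes stood out in that comparison, and limma-voom on the recovered reads also called 0 genes. In DKD_shRNA against NC, 1 of 10 was called (again Nfe2l2, higher), where 2.02% of tested genes were called and 1.42% were called higher, and 9 of 10 lay above 0 (48.8% of tested genes) with a median of 0.13, against -0.00 over all tested genes. There 2 of 10 had an unadjusted p under 0.05, against 16.2% of tested genes. In that comparison 189 genes were higher and 79 lower, a split that became 131 and 111 after rescaling each library to the same total.

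**Figure D2:**
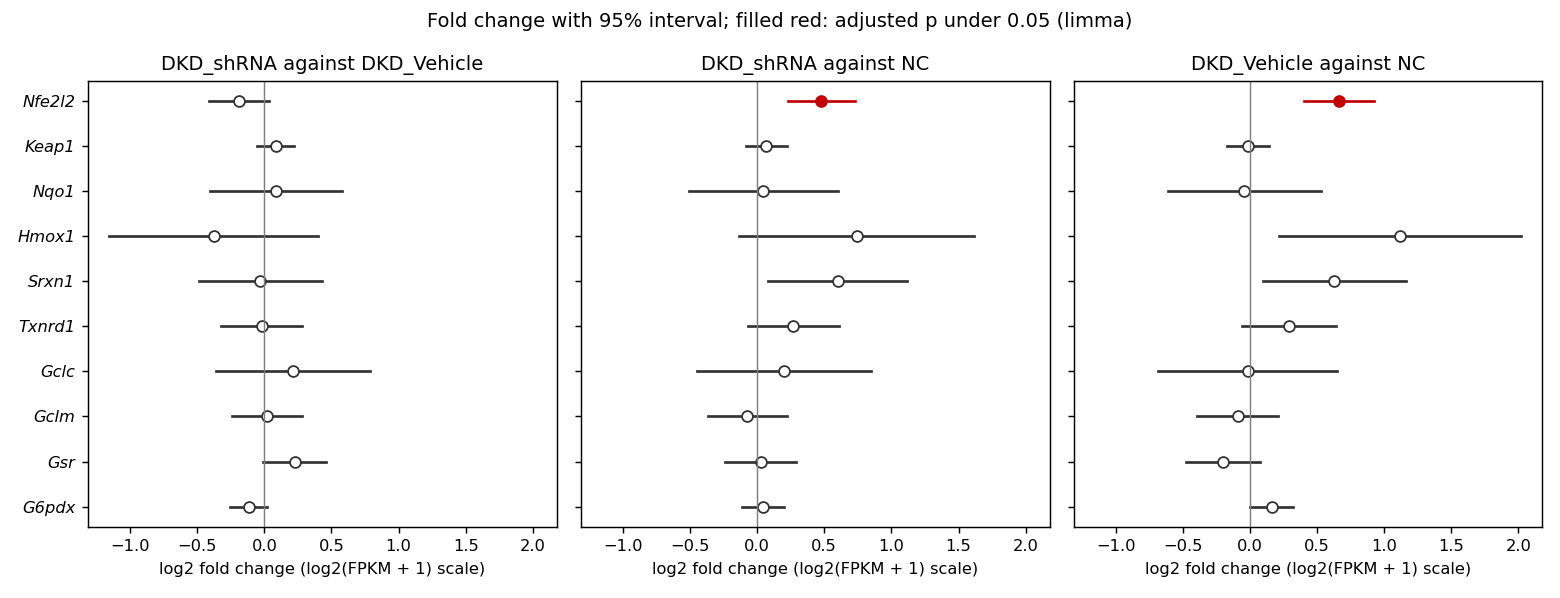
Log2 fold change of each member on the log2(FPKM + 1) scale with its 95% interval, in 3 comparisons; filled red symbols passed an adjusted p under 0.05 (limma). Nfe2l2 passed in both comparisons with NC, at 0.48 for DKD_shRNA and 0.67 for DKD_Vehicle, and no member passed between DKD_shRNA and DKD_Vehicle.

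Nfe2l2 (ENSMUSG00000015839; GRCm38, chromosome 2, 75675513 to 75704641, minus strand) was the member that differed from wild type in both DKD groups. Its level ran from 22.54 to 35.7 FPKM with a median of 28.2 in the libraries labelled DKD_shRNA, and from 27.7 to 42.1 with a median of 31.6 in DKD_Vehicle. In NC it was 18.2, 20.7, 19.3 and 22.63 FPKM. Every DKD_Vehicle library lay above every NC library, as 4.71% of tested genes did in that comparison. So did 6 of 7 labelled DKD_shRNA, the exception being DKD_shRNA 32 at 22.54. Nfe2l2 rose in DKD_Vehicle relative to NC by 0.67 ± 0.12 on the log2 scale (SE; 1.59-fold, limma adjusted p = 0.00369). This call held in all 30 alternatives run, with adjusted p between 0.00105 and 0.01995. Nfe2l2 also rose in DKD_shRNA relative to NC, by 0.48 ± 0.12 (1.39-fold, limma adjusted p = 0.04685), but this call lies at the threshold. It held in 12 of 30 alternatives, with adjusted p from 0.00749 to 0.178, and ended when DKD_shRNA 13, 15, 29, 31 or 35, DKD_Vehicle 1, 6 or 19, or any one of NC 37, 38, 39 and 41 was left out. Between DKD_shRNA and DKD_Vehicle the difference was -0.19 ± 0.11 (95% interval -0.41 to 0.04, limma adjusted p = 0.740), so a fall of up to 0.41 lies inside the interval.

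The Nfe2l2 promoter is shown because it is the promoter of the member that changed and itself holds the core letters of an antioxidant response element, TGACNNNGC. The 250 bases before the RefSeq start site (GRCm38.p6, chr2:75704664-75704913, minus strand, 5′ to 3′) are printed with the match in capitals, which begins at position -240, counting back from -1 just before the start:
Nfe2l2 promoter: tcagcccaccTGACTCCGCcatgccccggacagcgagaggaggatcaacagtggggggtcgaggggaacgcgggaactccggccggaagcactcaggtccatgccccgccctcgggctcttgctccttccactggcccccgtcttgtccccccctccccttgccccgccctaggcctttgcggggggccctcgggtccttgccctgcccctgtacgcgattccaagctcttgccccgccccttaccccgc
Both strands were searched for this 9-letter pattern in windows of 250 bases before to 50 after each RefSeq start in GRCm38.p6. It occurred in 12.4% of 32817 windows and in at least 1 window of 14% of 26994 genes. Of the 10 members, 7 had a window, with 9 windows among them, and 5 of these 7 genes held the pattern: Nfe2l2, Srxn1, Txnrd1, Gclm and G6pdx. A match is a description of the letters and not a measured binding site.

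Keap1 (ENSMUSG00000003308; chromosome 9, 21229730 to 21239361, minus strand), which encodes the inhibitor, was the lowest and among the steadiest members. It ran from 9.06 to 11.1 FPKM with a median of 9.76 in the libraries labelled DKD_shRNA and from 8.36 to 10.3 with a median of 9.53 in DKD_Vehicle. In NC it was 9.62, 9.85, 10.1 and 8.40 FPKM, and the 3 groups overlapped throughout. The log2 difference was 0.07 in DKD_shRNA and -0.01 in DKD_Vehicle relative to NC, and 0.08 between DKD_shRNA and DKD_Vehicle (limma adjusted p = 0.688, 0.932 and 0.832). The 95% interval of the DKD_Vehicle difference ran from -0.17 to 0.14. The level of Nfe2l2 over that of Keap1, both per gene length, was 2.31 to 3.61 (median 2.80) in DKD_shRNA, 2.92 to 4.22 (median 3.42) in DKD_Vehicle and 1.89 to 2.70 (median 2.01) in NC. All 6 DKD_Vehicle ratios lay above the highest NC ratio, as all 6 Nfe2l2 values alone already lay above NC. Ratios of other gene pairs were not taken, so no share over all genes stands beside this.

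Nqo1 (ENSMUSG00000003849; chromosome 8, 107388225 to 107403206, minus strand) encodes NAD(P)H quinone dehydrogenase 1, an enzyme that reduces quinones and is often read as a marker of NRF2 activity. Its level ran from 34.6 to 68.8 FPKM with a median of 51.7 in the libraries labelled DKD_shRNA, and from 23.9 to 73.1 with a median of 41.8 in DKD_Vehicle. NC libraries read 54.1, 38.7, 39.1 and 56.9 FPKM. The groups overlapped: DKD_Vehicle held both the highest libraries of the series (1 and 4, at 73.1 and 72.2) and the lowest (20, at 23.9). The means were 49.6 ± 13.4, 48.5 ± 19.95 and 47.2 ± 9.69 FPKM in DKD_shRNA, DKD_Vehicle and NC (SD, n = 7, 6 and 4). No difference was detectable in any comparison, and the 95% interval of DKD_Vehicle against NC, -0.61 to 0.53 on the log2 scale, was wide (limma adjusted p = 0.950). The sign of the Nqo1 difference changed with the scaling or the libraries left out, so none is stated.

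Hmox1 (ENSMUSG00000005413; chromosome 8, 75093621 to 75100589, plus strand) encodes heme oxygenase 1, which breaks heme into biliverdin, iron and carbon monoxide and is made by injured tubule cells and by macrophages. It ran from 29.2 to 101.8 FPKM with a median of 42.1 in the libraries labelled DKD_shRNA, and from 39.2 to 219.8 with a median of 52.1 in DKD_Vehicle. The NC libraries held 28, 29.2, 24.97 and 31.7 FPKM. All 6 DKD_Vehicle libraries lay above all NC libraries, as 4.71% of tested genes did in that comparison, and 5 of 7 labelled DKD_shRNA did. The difference did not pass: it was 1.12 ± 0.43 on the log2 scale for DKD_Vehicle (SE; 2.17-fold, 95% interval 0.22 to 2.02, limma adjusted p = 0.1195) and 0.74 ± 0.41 for DKD_shRNA relative to NC (limma adjusted p = 0.395). A single library carried much of the size. Without DKD_Vehicle 4 the DKD_Vehicle mean was 49.5 ± 9.48 FPKM (n = 5), against 77.9 ± 70.1 with it, and the difference from NC was 0.76 (limma adjusted p = 0.188). DKD_shRNA against DKD_Vehicle was -0.38 with that library and -0.02 without it, neither passing.

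Markers of macrophages, which also make heme oxygenase 1, are given beside Hmox1. The summed level of 12 macrophage markers was 101 to 173 FPKM in DKD_shRNA, 73.1 to 176 in DKD_Vehicle and 72.1 to 96.5 in NC. Of the 8 that were tested, Cd68 and Lyz2 were higher and Csf1r lower in DKD_Vehicle than in NC by the same limma test, where 3.58% of all tested genes were called higher and 3.91% lower. In DKD_shRNA against NC 1 of the 8 (Lyz2) was called, higher, as 1.42% of tested genes were. The ranges of the sum overlapped between DKD_Vehicle and NC and did not between DKD_shRNA and NC. No share over all genes stands beside this. Much of the sum came from Lyz2, C1qb and C1qa. They averaged 36.01, 31.96 and 30.07 FPKM in DKD_shRNA and 13.79, 19.8 and 18.98 in NC. Csf1r and Itgam went the other way, at 10.6 and 0.1624 FPKM in DKD_shRNA and 15.5 and 0.1825 in NC. The sum is thus not a rise shared by all its markers. In DKD_Vehicle 4, the library with the most Hmox1, the macrophage sum was 119 FPKM. The sum of 5 red blood cell markers there was 719.9 FPKM, the highest of its group. The highest red blood cell sum of all libraries was 1458 FPKM, in DKD_shRNA 34, where Hmox1 was 29.6 FPKM. The part of these cells in the Hmox1 result was not tested.

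Srxn1 and Txnrd1 serve the thioredoxin system: sulfiredoxin 1 restores overoxidised peroxiredoxins, and thioredoxin reductase 1 reduces cytosolic thioredoxin with NADPH. Srxn1 (ENSMUSG00000032802; chromosome 2, 152105516 to 152111376, plus strand) ran from 35.4 to 73.3 FPKM with a median of 47.3 in the libraries labelled DKD_shRNA, and from 30.03 to 91.6 with a median of 41.5 in DKD_Vehicle. Its NC values were 31.8, 29.6, 25.5 and 33.1 FPKM. All 7 libraries labelled DKD_shRNA lay above all NC libraries, as 3.31% of tested genes did in that comparison, and 5 of 6 DKD_Vehicle libraries did. The differences from NC were 0.60 ± 0.25 for DKD_shRNA (1.52-fold, limma adjusted p = 0.236) and 0.63 ± 0.25 for DKD_Vehicle (1.55-fold, limma adjusted p = 0.140), and neither passed. With weights per library the DKD_Vehicle difference passed (limma adjusted p = 0.0382), and over 30 alternatives its adjusted p ran from 0.0382 to 0.314. The difference between DKD_shRNA and DKD_Vehicle was -0.03 (95% interval -0.49 to 0.43).

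Txnrd1 (ENSMUSG00000020250; chromosome 10, 82833951 to 82897712, plus strand) ran from 33.6 to 46.3 FPKM with a median of 35.96 in the libraries labelled DKD_shRNA, and from 27.7 to 63.3 with a median of 35.5 in DKD_Vehicle. In the NC libraries Txnrd1 was 32.2, 32.4, 25.4 and 34.8 FPKM. In the libraries labelled DKD_shRNA 6 of 7 lay above the highest NC library, and in DKD_Vehicle 4 of 6 did. Relative to NC the log2 difference was 0.27 ± 0.16 for DKD_shRNA and 0.29 ± 0.17 for DKD_Vehicle (limma adjusted p = 0.425 and 0.306). Without DKD_Vehicle 4 the DKD_Vehicle mean was 34.8 ± 5.66 FPKM (n = 5) and the difference was 0.15.

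Both genes held the response element letters near a start site, on the strand opposite to the gene. These stretches are shown because Srxn1 is the member whose DKD_shRNA and NC libraries did not overlap and Txnrd1 is its partner in the pathway. The capitals mark the match (TGACCTAGC in Srxn1 and TGACAAAGC in Txnrd1 when read on the other strand), which begins at position 29 of Srxn1, counting from 1 at its start site, and at position -92 of the second of 3 Txnrd1 starts. The Srxn1 stretch is chr2:152105542-152105571 and the Txnrd1 stretch is chr10:82858956-82859205, both plus strand, from RefSeq with build GRCm38.p6:
Srxn1 stretch: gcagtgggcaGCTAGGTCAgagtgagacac
Txnrd1 promoter: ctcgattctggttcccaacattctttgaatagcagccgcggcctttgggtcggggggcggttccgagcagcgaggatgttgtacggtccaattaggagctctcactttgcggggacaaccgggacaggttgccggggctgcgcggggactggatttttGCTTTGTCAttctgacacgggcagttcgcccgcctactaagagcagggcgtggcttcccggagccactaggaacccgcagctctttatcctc

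None of the glutathione genes Gclc, Gclm and Gsr was called in any of the 3 comparisons. Gclc (ENSMUSG00000032350; chromosome 9, 77754535 to 77794485, plus strand) and Gclm (ENSMUSG00000028124; chromosome 3, 122245557 to 122270732, plus strand) encode the catalytic and the modifier subunit of glutamate-cysteine ligase, the first step of glutathione synthesis. Gclc ran from 69.1 to 169 FPKM with a median of 106.5 in the libraries labelled DKD_shRNA, and from 54.5 to 168.6 with a median of 90.3 in DKD_Vehicle. In NC it was 85.2, 99.5, 59.1 and 150.7 FPKM. Each group spanned more than the gap between any of the group means, which were 111 ± 33.4, 100.2 ± 44.8 and 98.6 ± 38.5 FPKM in DKD_shRNA, DKD_Vehicle and NC. With this spread the 95% interval of DKD_Vehicle against NC reached from -0.68 to 0.65 on the log2 scale. That upper end lay just below the 0.67 measured for Nfe2l2 in the same comparison. The interval of DKD_shRNA against NC, from -0.45 to 0.85, contained the 0.48 measured for Nfe2l2. No test compared the changes of both genes. The limma adjusted p was 0.798 for DKD_shRNA and 0.983 for DKD_Vehicle against NC, and 0.899 between DKD_shRNA and DKD_Vehicle.

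Gclm varied less within groups than its partner, with a residual SD of 0.23 on the log2 scale, against 0.54 for Gclc. It ran from 65.04 to 85.3 FPKM with a median of 73.6 in the libraries labelled DKD_shRNA, and from 45.9 to 91.5 with a median of 76.3 in DKD_Vehicle. The 4 NC values were 74.2, 75.1, 71.2 and 88.5 FPKM. The lowest value was in DKD_Vehicle 20, the library with the fat markers, and the next lowest in that group was 70.8. The log2 differences were -0.07 for DKD_shRNA and -0.09 for DKD_Vehicle relative to NC, and 0.02 between DKD_shRNA and DKD_Vehicle (limma adjusted p = 0.845, 0.7545 and 0.9825), the last with a sign that reversed after rescaling to the same total. Its promoter is shown as one that holds the same letters as that of Nfe2l2 in a gene that was not called. It is the 250 bases before the RefSeq start (GRCm38.p6, chr3:122245307-122245556, plus strand), and the match, TGACGGTGC on the other strand, begins at position -134:
Gclm promoter: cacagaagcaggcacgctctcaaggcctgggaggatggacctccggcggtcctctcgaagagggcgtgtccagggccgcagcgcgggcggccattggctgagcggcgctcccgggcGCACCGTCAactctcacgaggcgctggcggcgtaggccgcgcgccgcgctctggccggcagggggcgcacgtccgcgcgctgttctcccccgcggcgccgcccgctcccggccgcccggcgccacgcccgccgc

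Gsr (ENSMUSG00000031584; chromosome 8, 33652523 to 33698163, plus strand) encodes glutathione reductase, which returns oxidised glutathione to its reduced form with NADPH. It ran from 65.7 to 94.0 FPKM with a median of 71.1 in the libraries labelled DKD_shRNA, and from 53.1 to 86.8 with a median of 62.04 in DKD_Vehicle. In NC it was 75.6, 78.6, 67.2 and 72.2 FPKM. The ranges overlapped, with 5 of 6 DKD_Vehicle libraries at or below 69.02. Gsr had the smallest p of the members between DKD_shRNA and DKD_Vehicle, at 0.23 ± 0.11 on the log2 scale (95% interval -0.01 to 0.46), and its limma adjusted p was 0.698. Relative to NC it differed by 0.03 in DKD_shRNA, a sign that reversed after rescaling to the same total and after quantile normalization, and by -0.20 in DKD_Vehicle (limma adjusted p = 0.939 and 0.379).

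G6pdx (ENSMUSG00000031400; chromosome X, 74409483 to 74429194, minus strand) encodes glucose-6-phosphate dehydrogenase, the entry to the pentose phosphate pathway and a source of the NADPH that Gsr, Txnrd1 and Nqo1 spend. It ran from 10.02 to 13.8 FPKM with a median of 11.8 in the libraries labelled DKD_shRNA, and from 11.7 to 13.99 with a median of 13.1 in DKD_Vehicle. NC kidneys gave 10.8, 11.8, 10.7 and 12.6 FPKM. The groups overlapped, with 4 of 6 DKD_Vehicle libraries above the highest NC library. The difference of DKD_Vehicle from NC was 0.16 ± 0.08 on the log2 scale, with an unadjusted p of 0.0486 and a limma adjusted p of 0.211. DKD_shRNA differed by 0.04 from NC, a sign that reversed after rescaling to the same total, and by -0.12 from DKD_Vehicle (limma adjusted p = 0.819 and 0.733). G6pdx overlaps Ikbkg on the opposite strand, which averaged 5.78 FPKM over the 17 libraries, and since no source used here says whether counting used strand, reads of the 2 genes may be mixed. Its promoter window held TGACTGAGC on the other strand, beginning at position -57.

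Some libraries were high or low across many members at once. DKD_Vehicle 4 was the highest of 17 for 6 members and among the top 3 for 9. Next came DKD_shRNA 13, among the top 3 for 8 members, and DKD_Vehicle 1, among the top 3 for 5. At the low end DKD_Vehicle 20 was the lowest of 17 for 4 members and NC 39 for 3. The library size behind the FPKM values was 1.153 times the recovered reads in DKD_Vehicle 20, the largest such factor. It was 0.949 times in DKD_Vehicle 4, 1.026 in DKD_shRNA 13 and 1.023 in NC 39. A larger factor lowers the FPKM of every gene in a library, and its part in these ranks was not tested. Ranks over all tested genes are not given here, so whether the same libraries stood out beyond the members was not tested. In units of SD from the mean of all 17 libraries, the median over the 10 members was 1.53 in DKD_Vehicle 4, 1.32 in DKD_shRNA 13, -1.13 in DKD_Vehicle 20 and -1.20 in NC 39. In DKD_Vehicle 4 the FPKM of Hmox1 was 4.76 times the median of the other libraries of its group, that of Gclc 2.38 times, of Srxn1 2.37 times, of Nqo1 1.86 times and of Txnrd1 1.81 times. The summed proximal tubule markers were 31030 FPKM in DKD_Vehicle 4 and 15070 in DKD_Vehicle 20, the lowest of all libraries. Over the groups that sum was 20710 to 43120 FPKM in DKD_shRNA, 15070 to 33930 in DKD_Vehicle and 31710 to 42960 in NC. Most of it came from a single marker, Kap, which averaged 26340, 21470 and 31070 FPKM in the same groups. The sum thus mainly follows Kap. Slc34a1, the next highest marker, ran from 866.8 to 1183 FPKM in DKD_shRNA, 849.9 to 1257 in DKD_Vehicle and 992.6 to 1535 in NC. Of those 12 markers, 5 were lower in DKD_Vehicle and 1 in DKD_shRNA than in NC by the same limma test, where 3.91% and 0.595% of all tested genes were called lower. Their part in the members' values was not tested.

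**Figure D3:**
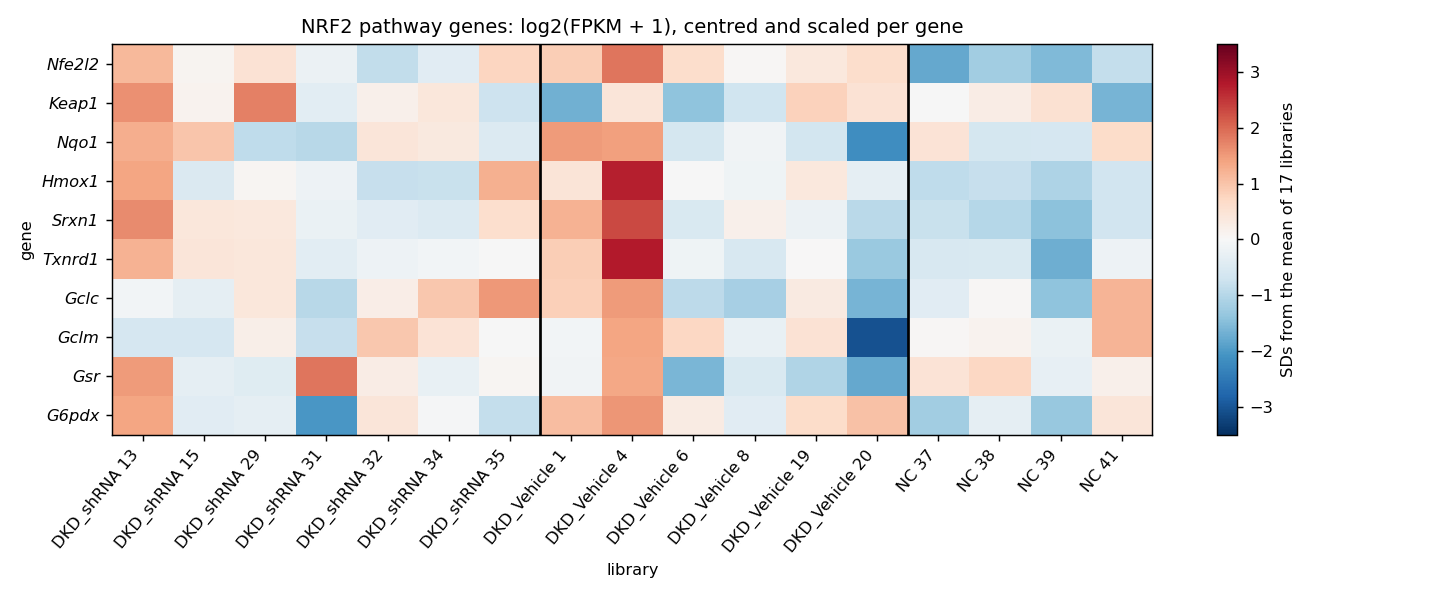
Log2(FPKM + 1) of each member, centred and scaled over the 17 libraries (colour, in SD units), with libraries as columns by group and lines between groups. DKD_Vehicle 4 is above the mean for every member, and DKD_Vehicle 20 is below it for Nqo1, Hmox1, Srxn1, Txnrd1, Gclc, Gclm and Gsr but above it for Nfe2l2, Keap1 and G6pdx.

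Genes around the members were read from 6 lists with 77 genes in all, of which 68 passed the filter. In DKD_Vehicle against NC 6 of the 68 were higher and 0 lower, where 3.58% of tested genes were called higher and 3.91% lower. In DKD_shRNA against NC 2 of the 68 were higher and 0 lower, where 1.42% of tested genes were called higher, and between DKD_shRNA and DKD_Vehicle none was called (0% of tested genes). Slc7a11, the cystine carrier that supplies glutathione synthesis and a well known NRF2 target, was not tested: it reached at most 0.0444 FPKM.

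The calls lay mainly among detoxification enzymes and efflux pumps, where 5 of 18 tested genes were higher in DKD_Vehicle than in NC (3.58% of all tested genes), with a list median of 0.28 on the log2 scale (0.19 to 0.44 over the alternatives) against 0.01 for all tested genes, and 17 of 18 above 0 (51.5% of all tested genes). Ephx1, the microsomal epoxide hydrolase, averaged 55.2 ± 11.1 FPKM in DKD_shRNA, 70.9 ± 10.6 in DKD_Vehicle and 17.2 ± 1.64 in NC. It rose in DKD_Vehicle by 1.97 ± 0.14 on the log2 scale (3.93-fold, limma adjusted p = 1.73e-07) and in DKD_shRNA by 1.61 ± 0.13 (3.06-fold, limma adjusted p = 1.34e-06), with no overlap with NC in either. Of all tested genes, 4.71% in DKD_Vehicle and 3.31% in DKD_shRNA likewise lay wholly above NC. Mgst1, a membrane-bound glutathione transferase, averaged 51.9 ± 8.42, 61.1 ± 8.14 and 29.6 ± 3.86 FPKM in DKD_shRNA, DKD_Vehicle and NC, and rose relative to NC by 0.78 in DKD_shRNA and 1.02 in DKD_Vehicle (limma adjusted p = 0.00250 and 0.000198). Gsta2, an alpha-class glutathione transferase, averaged 199 ± 66.8 FPKM in DKD_Vehicle and 82.2 ± 13.6 in NC, a rise of 1.22 (limma adjusted p = 0.00403). It averaged 141 ± 39.97 in DKD_shRNA, which was not called against NC (limma adjusted p = 0.0988). Gsta2 shares much of its sequence with other alpha-class genes, so how reads were split among them is uncertain. The other 2 calls in DKD_Vehicle, named after their values were seen, were Akr1b8, an aldo-keto reductase, at 6.21 against 1.71 FPKM, and Gsta1 at 1.52 against 0.271 FPKM, with the same doubt over copies.

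Between DKD_shRNA and DKD_Vehicle only 1 of the 18 detoxification genes lay above 0 (48.5% of all tested genes), with a median of -0.25 against -0.00 for all tested genes, and none was called. Ephx1 stood at -0.36 ± 0.12, Gsta2 at -0.47 ± 0.20 and Mgst1 at -0.24 ± 0.11 in that comparison (limma adjusted p = 0.453, 0.604 and 0.680). Over the 30 alternatives 1 to 4 genes lay above 0 and the median stayed between -0.30 and -0.14. These values share their DKD_Vehicle libraries with the comparison in which Ephx1, Mgst1 and Gsta2 rose, so the opposite signs are not independent.

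Among 9 genes of NADPH supply, Tkt, the transketolase of the pentose phosphate pathway, averaged 32.6 ± 2.16 FPKM in DKD_shRNA, 39.2 ± 3.95 in DKD_Vehicle and 31.5 ± 1.14 in NC. It rose in DKD_Vehicle relative to NC by 0.30 ± 0.08 (limma adjusted p = 0.0221), a call that ended when NC 37 or NC 38 was left out, after rescaling to the same total and when only both groups compared were fitted (adjusted p from 0.0593 to 0.0962). Tkt stood at -0.26 ± 0.07 in DKD_shRNA against DKD_Vehicle (limma adjusted p = 0.270). In the remaining 4 lists no gene was called in any of the 3 comparisons. The 14 tested regulators and partners of NRF2 had medians of 0.02 for DKD_shRNA and -0.07 for DKD_Vehicle against NC, the first between -0.02 and 0.03 over the alternatives. Sqstm1, whose protein p62 competes for KEAP1, averaged 265 ± 42.9, 285 ± 74.0 and 216 ± 11.3 FPKM in DKD_shRNA, DKD_Vehicle and NC (limma adjusted p against NC = 0.366 and 0.154). Maff, a small MAF partner, averaged 5.08 ± 2.01, 4.77 ± 3.42 and 2.25 ± 1.40 FPKM in the same groups (limma adjusted p against NC = 0.206 and 0.242). Of the glutathione list 8 of 11 genes were tested, and Ggct, which handles gamma-glutamyl peptides, averaged 5.22 ± 1.46 FPKM in DKD_shRNA, 4.32 ± 0.90 in DKD_Vehicle and 6.71 ± 1.23 in NC (limma adjusted p for DKD_Vehicle against NC = 0.0570). All 10 genes of the thioredoxin and peroxiredoxin list were tested, and Msra, which repairs oxidised methionine, averaged 83.2 ± 4.77, 86.97 ± 12.4 and 71.4 ± 3.81 FPKM in the same order of groups (limma adjusted p against NC = 0.260 and 0.0973). The 9 tested genes of heme and iron handling included Slc40a1, the iron exporter ferroportin, at 6.40 ± 1.23 FPKM in DKD_shRNA, 8.33 ± 3.05 in DKD_Vehicle and 5.03 ± 0.32 in NC (limma adjusted p for DKD_Vehicle against NC = 0.0569).

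**Figure D4:**
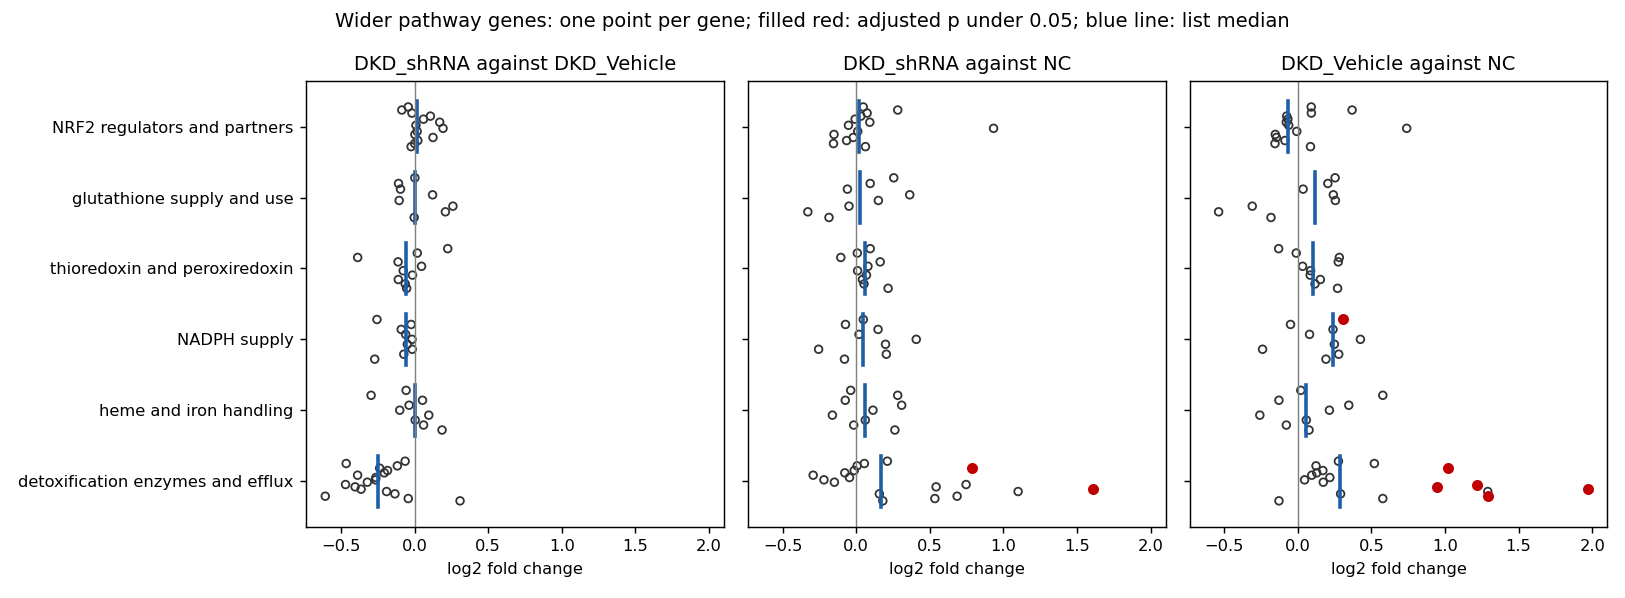
Log2 fold change of each tested gene of the 6 wider lists (1 point per gene, with vertical offset only to separate points), in 3 comparisons; filled red points passed an adjusted p under 0.05 (limma) and blue lines are list medians. In DKD_Vehicle against NC, 5 detoxification genes and Tkt are filled, in DKD_shRNA against NC 2 detoxification genes are, and none is between DKD_shRNA and DKD_Vehicle.

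The genes whose levels followed Nfe2l2 and Nqo1 most closely were found by the root mean square difference of scaled log2 values over the 17 libraries, where 0 is an identical pattern and the median over tested genes was 1.36. For Nfe2l2 these were Rbm43 (0.305), Thumpd3 (0.359) and Serpinb9 (0.360). Rbm43 averaged 3.90 FPKM in DKD_shRNA, 4.43 in DKD_Vehicle and 2.84 in NC, and Serpinb9 averaged 6.04, 6.75 and 4.11 FPKM in the same groups. Among the members Hmox1 (0.510) and Srxn1 (0.601) were nearest to Nfe2l2, while Gclm (1.42) and Gsr (1.39) were as far from it as a typical gene. For Nqo1 the closest genes were Chp1 (0.345), Dgat2 (0.363) and Tmem97 (0.431). Of the members Txnrd1 (0.764) and Srxn1 (0.840) were nearest to Nqo1, and Nfe2l2 stood at 1.25. The closest genes were taken from all 13279 tested genes and the closest members from 9, so the 2 sets of values are not comparable. All of these values share the same 17 libraries, and no test was made of them.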

How the data were processed

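Libraries came from total RNA of whole kidney (SMARTER mRNA kit, per the labels' protocols). One table was deposited by the authors: FPKM values per gene and library, with gene lengths, per the file headers. The submitters' processing notes name GRCm38 and mm10. No source used here names the aligner, the counting tool or whether it used strand. The table's gene positions were compared with GENCODE M21, and 98.1% of shared IDs had the same position.

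Besides 42794 complete lines, 1 incomplete line was left out. FPKM times gene length fell on whole multiples of 1 step per library (100% of low values within 0.05 of a step), which gave the recovered reads. Values were tested as log2(FPKM + 1), with genes at 1 FPKM or more in at least 4 libraries, by limma-trend (limma 3.58.1, R 4.3.3), fitting 1 mean per group to all 17 libraries together. Fold changes on this scale understate the change of low genes. limma-voom on the recovered reads, an alternative, called 1066 genes for DKD_Vehicle against NC, 0 for DKD_shRNA against DKD_Vehicle and 244 for DKD_shRNA against NC. Simulated data for 13279 genes drew each gene with its own spread and placed changes only in genes of higher level. There 1.5-fold changes were recovered in 69% of cases for DKD_Vehicle against NC, 76% for DKD_shRNA against DKD_Vehicle and 80% for DKD_shRNA against NC. In the same order 7, 12 and 15 unchanged genes were called. These shares pool genes of all spreads and give no rate for members that varied more, such as Hmox1 with a residual SD of 0.73. Each simulated comparison changed 100 genes 1.5-fold and 100 genes 2-fold, and adjustment is milder where many genes change. The shares thus give no rate for a lone changed gene where 0 genes were called, as in DKD_shRNA against DKD_Vehicle.

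Outside the members, the text names Gcgr, up to 3 called genes per list or the 1 with the smallest p where none was called, and the 3 genes most like Nfe2l2 and Nqo1. The members, lists and named genes' rule were chosen with earlier results of these data known, and the lists come from general knowledge of the pathway. Alternatives changed the libraries included, the groups fitted, the variance model, the scaling, the pseudocount and the low-value filter. Promoter sequences are from RefSeq, build GRCm38.p6. Hmox1, Gclc and Gsr had no sequence in that table.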

Additional observations from a re-analysis of the deposited data

Results flagged for a closer look

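In 8 of 96 combinations of a named gene and a group, 1 library stood far from the others of its group by Dixon's criterion. All 8 lay in DKD_shRNA or DKD_Vehicle. Chance gives about 1 in 20 for genes picked without regard to their values, which was not so for all genes here. Among the members, Hmox1 was 219.8 FPKM in DKD_Vehicle 4, where the other libraries of the group ran from 39.2 to 60.8, and Srxn1 was 73.3 FPKM in DKD_shRNA 13, where the others ran from 35.4 to 50.9. In DKD_Vehicle 4 this also held for Sqstm1 at 429 FPKM (others 226 to 294), Rbm43 at 5.405 (others 3.99 to 4.38) and Thumpd3 at 5.10 (others 3.34 to 3.76). Rbm43 and Thumpd3 were picked because they followed Nfe2l2 over these same libraries, and Nfe2l2 was itself highest in DKD_Vehicle 4. Their flags are therefore not separate from that choice. In DKD_shRNA 31 it held for Gpx4, a glutathione peroxidase, at 1070 FPKM (others 451 to 656) and Pgls, 6-phosphogluconolactonase, at 47.35 (others 21.3 to 29.5). In DKD_Vehicle 20 it held for Slc40a1 at 14.1 FPKM (others 5.12 to 8.24).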

How the results depend on the processing

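No paired analysis was possible because the groups share no replicate numbers. The Nfe2l2 call in DKD_Vehicle held in all 30 alternatives; its call in DKD_shRNA against NC did not, so that 0 members were called there with a pseudocount of 5, without the filter, rescaled to the same total, without the trend, with voom, and without DKD_Vehicle 20 and DKD_shRNA 31 (0 to 1 leaving out 1 library). The cause was not tested. With sample weights 2 members were called in DKD_Vehicle against NC.

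All genes called in DKD_Vehicle against NC (994) numbered 597 without the filter, 2087 with sample weights and 456 to 1264 leaving out 1 library, the furthest being 659 without DKD_Vehicle 4, 487 without NC 37, 477 without NC 38 and 456 without NC 39. In DKD_shRNA against NC (268) they numbered 155 without the filter, 154 at a mean FPKM of 5, 1070 with weights, 438 with 2 groups fitted and 103 to 348 leaving out 1 library, the furthest being 165 without DKD_shRNA 13, 170 without DKD_shRNA 35, 131 without NC 37, 105 without NC 38 and 103 without NC 39. In DKD_shRNA against DKD_Vehicle (0) they numbered 1 with 2 groups fitted, at a mean FPKM of 5 and with the pseudocount at 0.1, and 0 to 3 leaving out 1 library (3 without DKD_shRNA 13, 2 without DKD_Vehicle 20, 1 without NC 38 or NC 39). Wider pathway genes called in DKD_Vehicle against NC (6) numbered 13 with weights, 10 without DKD_Vehicle 20 and DKD_shRNA 31 and 4 to 9 leaving out 1 library; in DKD_shRNA against NC (2) they numbered 7 with weights, 4 with 2 groups fitted and 2 to 3 leaving out 1 library.

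Log2 differences of members that were not called and changed sign were as follows. In DKD_Vehicle against NC, Keap1 was 0.0044 with voom (-0.066 to 0.015 leaving out 1 library), Nqo1 0.022 with weights and 0.14 without DKD_Vehicle 20 and DKD_shRNA 31 (-0.18 to 0.14), Gclc 0.0027 with voom and 0.13 without those libraries (-0.23 to 0.21), and Gclm 0.039 without them (-0.16 to 0.039). In DKD_shRNA against DKD_Vehicle, Nqo1 was -0.014 without them (-0.091 to 0.22), Gclm -0.0265 rescaled, -0.010 with weights, -0.0094 with voom and -0.084 without them (-0.11 to 0.084), Txnrd1 0.045 with weights (-0.11 to 0.12), and Srxn1 -0.15 to 0.16 leaving out 1 library. In DKD_shRNA against NC, Nqo1 was -0.0061 rescaled (-0.039 to 0.14), Gclc -0.018 to 0.43 leaving out 1 library, Gsr -0.027 rescaled, -0.017 with quantile normalization and -0.028 without those libraries (-0.028 to 0.060), and G6pdx -0.0060 rescaled.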
